A study of Mus musculus with 2 samples.

Results

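Cd209a-positive conventional dendritic cells were the cells of a spleen library with a transcript of Cd209a together with a clear signal of the class II gene H2-Aa. Of 11692 analysed cells, 70 met the rule, which is 0.599% (95% exact binomial interval 0.467 to 0.756%, counting error only). The cells were chosen by their own UMI counts of the genes below, which are therefore described and not tested. A cell had to hold at least 1 unique molecular identifier (UMI, a count of 1 captured RNA molecule) of Cd209a and at least 3 of H2-Aa. It had to hold none of Cd79a, a B cell receptor subunit, or of Klre1, a receptor of natural killer (NK) cells. Fewer than 3 of 6 maturation genes (Fscn1, Il4i1, Apol7c, Anxa3, Cxcl16 and H2-M2) could be detected. All cells came from spleens of wild-type mice, with no strain, age or sex stated in the labels, and were enriched for NK cells by negative selection. The antibody mix of that selection is also directed at dendritic cells, so the cells described here are those that remained after it. The series' design text says that lipid-based tags served to pool mice. The matrix holds 3 tags, and no label says which mouse, or how many, a tag stands for. The study as a whole concerns Kir6.1, a potassium channel subunit encoded by Kcnj8, in NK cell development. Its 2 samples are both wild-type, and the count matrix of 1 of them was used; the second was not analysed here.

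Conventional dendritic cells take up antigen, load its peptides on class II molecules and present them to T cells. In the mouse spleen they fall into cDC1, which depend on the factors IRF8 and BATF3 and carry XCR1 and CLEC9A, and cDC2, which are more varied and rely more on IRF4 and KLF4. CD209a is a mouse relative of human DC-SIGN, a C-type lectin that binds sugars on microbes, and is used as a marker of a part of the cDC2 that also expresses CLEC10A and CCR2.

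The promoters of the class II genes carry a shared block of short elements that is bound by the RFX, CREB and NF-Y factors and through them by the coactivator CIITA. The start regions of H2-Aa and H2-Eb1 are shown because class II transcripts define the class and set it apart from the monocyte class described further on, and that of Cd209a because it is the gene the class is named for. Each run is the 120 bases before the RefSeq start (GRCm38.p6), 5′ to 3′ on the gene's strand. In the class II promoters capitals mark ATTGG on either strand, which are letters bound by NF-Y. They also mark the letters of the CREB-type element on either strand, taken here as TGATG in its common form or as TGACG in its other form; in H2-Aa these matches overlap each other. In the Cd209a promoter capitals mark only CTTCC, which read on the other strand holds the core letters bound by ETS factors such as PU.1.
H2-Aa, chr17:34287824-34287943, minus strand: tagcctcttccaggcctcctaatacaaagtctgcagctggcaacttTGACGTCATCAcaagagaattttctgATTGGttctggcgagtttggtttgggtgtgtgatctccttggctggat
H2-Eb1, chr17:34305747-34305866, plus strand: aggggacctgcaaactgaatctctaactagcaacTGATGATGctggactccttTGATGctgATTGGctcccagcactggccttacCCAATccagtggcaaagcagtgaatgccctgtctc
Cd209a, chr8:3748985-3749104, minus strand: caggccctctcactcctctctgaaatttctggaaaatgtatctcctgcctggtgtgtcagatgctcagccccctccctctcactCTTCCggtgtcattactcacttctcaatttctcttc
In H2-Aa the NF-Y letters begin 48 bases before the start, and the first CREB-type match 74 bases before it. In H2-Eb1 the NF-Y letters begin 59 bases before the start, with a second match on the other strand at 35 bases, and the CREB-type matches begin 86, 83 and 67 bases before it. Of 32851 mouse promoters of the same length, searched on both strands, 21.3% held the NF-Y letters, 28.4% held either CREB-type form and 6.25% held both kinds. The CTTCC of Cd209a begins 36 bases before the start, and 41.0% of promoters held it. These matches describe letters in a window and were not tested for binding.

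The Cd209a-positive cells numbered 16, 18 and 36 in tags 1, 2 and 3, or 0.445, 0.428 and 0.927% of each tag's cells. The mean over tags was 0.600% ± 0.283 (SD, n = 3 tags). They held 649034 UMIs in all and 171980, 158424 and 318630 UMIs by tag, with a median of 8009.5 UMIs (3758 to 22086) and 2461.5 genes per cell. The NK gate, cells with Klre1 and no H2-Aa, held 8375 cells with a median of 4025 UMIs. Levels below are counts per 1000000 UMIs (CPM), the UMIs of a gene summed over the cells of a class and tag and divided by all gene UMIs of the same cells. Ribosomal protein transcripts made up a median of 28.8% of a Cd209a-positive cell's UMIs and mitochondrial transcripts 1.34%.

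The genes of the rule describe the class and are not a finding. Cd209a stood at 500.1, 669 and 596 CPM in tags 1, 2 and 3 and at 1 to 26 UMIs per cell, with a median of 4. The number of Cd209a UMIs was 1 in 22 cells, 2 in 8, 3 in 1 and at least 4 in 39. In the NK gate 5 of 8375 cells held a Cd209a UMI (0.0597%), and none of the 546 cells of the B cell gate did, with an upper bound of 0.673% (95% exact binomial interval). H2-Aa, which encodes a class II chain, stood at 6164, 6394 and 5929 CPM, with 4 to 225 UMIs per cell and a median of 50. A further 4 cells with a Cd209a UMI fell just outside with 1 or 2 H2-Aa UMIs, 5 held no H2-Aa UMI, and 4 cells fell just inside with 3 to 5. Among the 70 cells, 46 held none of the 6 maturation genes, 21 held 1 and 3 held 2, and 1 Cd209a-positive cell was left out because it held 3 or more. Klre1 kept out a further 23 cells, which had a median of 12435 UMIs, and Cd79a kept out 0.

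Of the markers named with the class that the rule did not use, H2-Ab1, the partner chain of H2-Aa, was detected in 69 of 70 cells at 5268, 5365 and 5232 CPM. Alox5ap, which encodes the protein that hands arachidonic acid to 5-lipoxygenase in leukotriene synthesis, was detected in 67 cells at 657, 953 and 813 CPM. Plbd1, a phospholipase B-like gene, was detected in 64 cells at 704, 701 and 734 CPM. In the NK gate Alox5ap was detected in 1.06% and Plbd1 in 0.693% of cells. Of the conventional dendritic cell genes, Flt3, the receptor for the growth factor of the lineage, was detected in 60 of 70 cells at 314, 202 and 377 CPM, against 0.537% of NK gate cells. Dpp4 was detected in 55 cells, Bcl11a, a factor of the dendritic lineage, in 54, and Itgax, which encodes CD11c, in 37. Zbtb46, a factor restricted among immune cells largely to conventional dendritic cells, was detected in 28 cells at 58.1, 63.1 and 59.6 CPM.

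Some defining markers of other cell types were at 0. However, each list of NK, T cell, B cell, plasma cell, erythroid, platelet, neutrophil, red pulp macrophage, stromal, pDC, cDC1 and monocyte genes had members with UMIs. No UMI was found of Cd3d, Cd3e, Cd3g, S100a8, Ly6g, Mcpt8, C1qa, C1qb, C1qc, Chil3 or C5ar1, and a count of 0 over the class allows up to 4.62 CPM. Fcgr1, which encodes the macrophage receptor CD64, had 3 UMIs and Cd14 7. Csf1r, the receptor of the macrophage growth factor, was detected in 24 cells at 40.7, 50.5 and 81.6 CPM and Lyz2, lysozyme, in 44 cells at 1762, 1117 and 788 CPM. Flt3, Dpp4 and Bcl11a were thus detected in most cells and Zbtb46 in fewer. The T cell, neutrophil and red pulp macrophage markers named here were at 0, while other genes of those lists had UMIs. The class was not uniform, and some of its cells carried marker sets of cDC1 or of plasmacytoid dendritic cells (pDC), as described next.

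**Figure D1:**
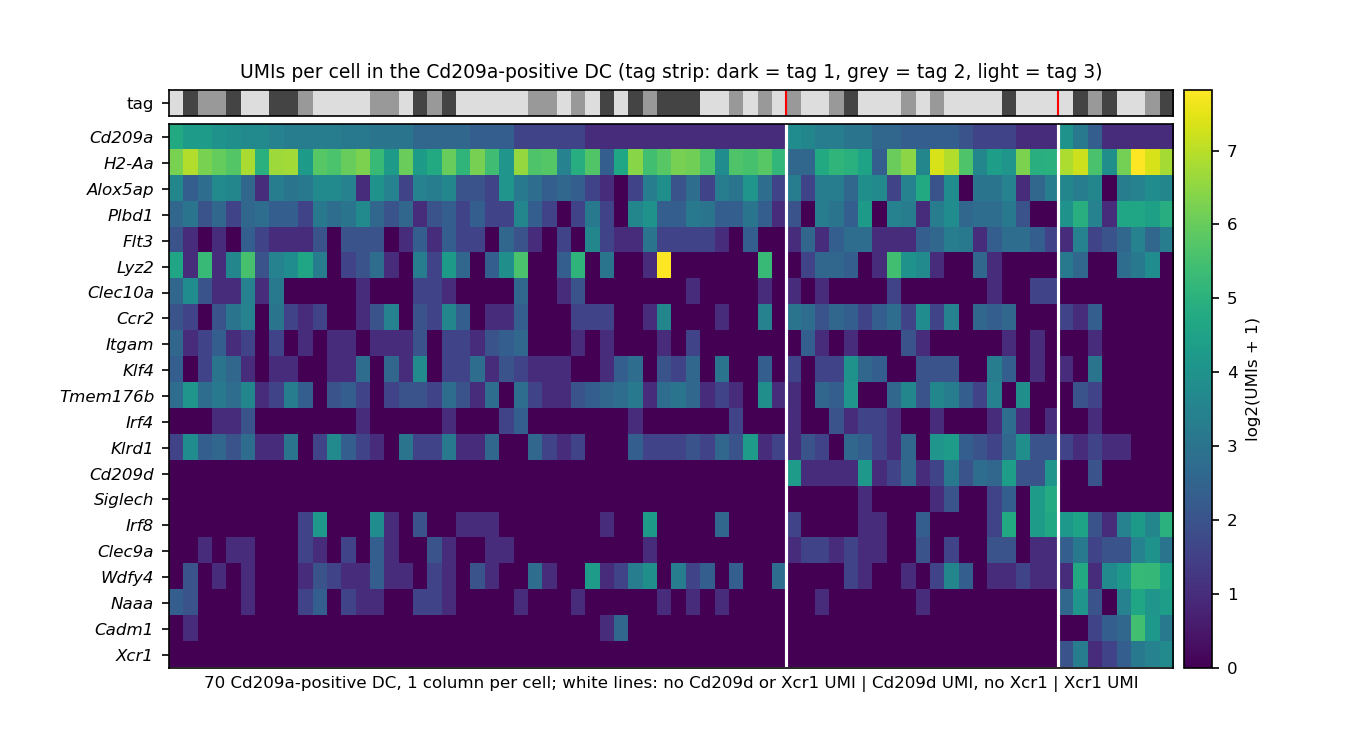
UMIs per cell, as log2(UMIs + 1), of 21 genes (rows) in the 70 Cd209a-positive dendritic cells (columns), with the tag of each cell in the strip above. White lines separate cells with neither a Cd209d nor an Xcr1 UMI, cells with Cd209d but no Xcr1, and the 8 cells with Xcr1, most of which also hold Cadm1, Naaa and Wdfy4.

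Among the 20 most abundant transcripts of the class, leaving out the genes of the rule and ribosomal proteins, were 3 of antigen presentation. Cd74, the invariant chain, stood at 16141 ± 1195 CPM (SD, n = 3 tags), H2-Ab1 at 5288 ± 69.1 CPM and H2-Eb1 at 4735 ± 286 CPM. Cst3, which encodes cystatin C and is abundant in dendritic cells, and Tyrobp, a signalling adaptor of myeloid and NK cells, were also among the 20. Ifitm3, an antiviral membrane protein, stood at 1919, 2714 and 1792 CPM and was detected in 64 cells.

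Of the 7 Cd209 family genes, Cd209d was the only other one found in more than a few molecules. It stood at 122, 189 and 210.3 CPM and was detected in 20 of 70 cells (28.6%, 21.4% after thinning each cell to 3500 UMIs), against 3 of 8375 NK gate cells (0.0358%). Cd209b had 4 UMIs, Cd209c 5 and Cd209e 9, and Cd209f and Cd209g had 0. The family lies in a cluster on chromosome 8 (GRCm38): Cd209a at chr8:3743397-3748984 and Cd209d at chr8:3871824-3878555, both on the minus strand, 122.84 kb apart. In the annotation neither overlaps another gene. Since the genes of the family are related in sequence, reads shared between them could have been split or dropped in the counting.

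Cells with Cd209d differed from the rest of the class in many transcripts, described here without a test. The 20 cells with a Cd209d UMI (2, 5 and 13 in tags 1, 2 and 3) had a median of 8130 UMIs, and the 50 without (14, 13 and 23) had 7981.5. The part of the uneven tags in what follows was not tested. Ly6c2, a surface antigen of monocytes and pDC, stood at 789 CPM with and 19.6 CPM without Cd209d, and 149 of its 158 UMIs lay in the 20 cells. Tcf4, the factor that directs pDC, stood at 1212 CPM with and 150 CPM without, and Bst2, a surface protein abundant on pDC, at 1668 CPM with and 217 CPM without. Siglech, a pDC lectin, had a UMI in 7 cells (1, 1 and 5 by tag), all of them with Cd209d, and 2 of these cells held at least 15 UMIs. Ly6d, another pDC gene, stood at 413 CPM with and 4.35 CPM without, and its tags were uneven at 0, 6.31 and 248 CPM. Irf4, the cDC2 factor, stood at 111 CPM with and 34.8 CPM without and Cybb, an NADPH oxidase subunit, at 842 CPM with and 382 CPM without.

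Class II and several myeloid transcripts were less abundant in the Cd209d cells. H2-Ab1 stood at 3245 CPM with and 6107 CPM without, Cd74 at 10985 CPM with and 18281 CPM without and Cst3 at 3605 CPM with and 7322 CPM without a Cd209d UMI. Lyz2 stood at 498 CPM with and 1384 CPM without, but 1 cell without Cd209d held 225 of the 731 Lyz2 UMIs of the class. Hpgd, which breaks down prostaglandins, stood at 42.4 CPM with and 222 CPM without, Clec10a, a galactose-binding lectin, at 47.6 CPM with and 128 CPM without, and Id2, an inhibitor of the pDC program, at 21.2 CPM with and 304 CPM without. Most cells with an Xcr1 UMI, described below, lay on the side without Cd209d. Cst3 and Id2 were far more abundant in those cells, and their part in these pairs was not tested. The counting intervals (95% Poisson) of the pairs above did not overlap. Those of Cd209a itself (519 and 617 CPM), Plbd1 (641 and 749.8 CPM) and Alox5ap (868 and 780.2 CPM) did. In all 11692 cells, 13 cells outside the class held a Cd209d UMI, and 5 of the Cd209d-positive cells held no Cd209a UMI.

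**Figure D2:**
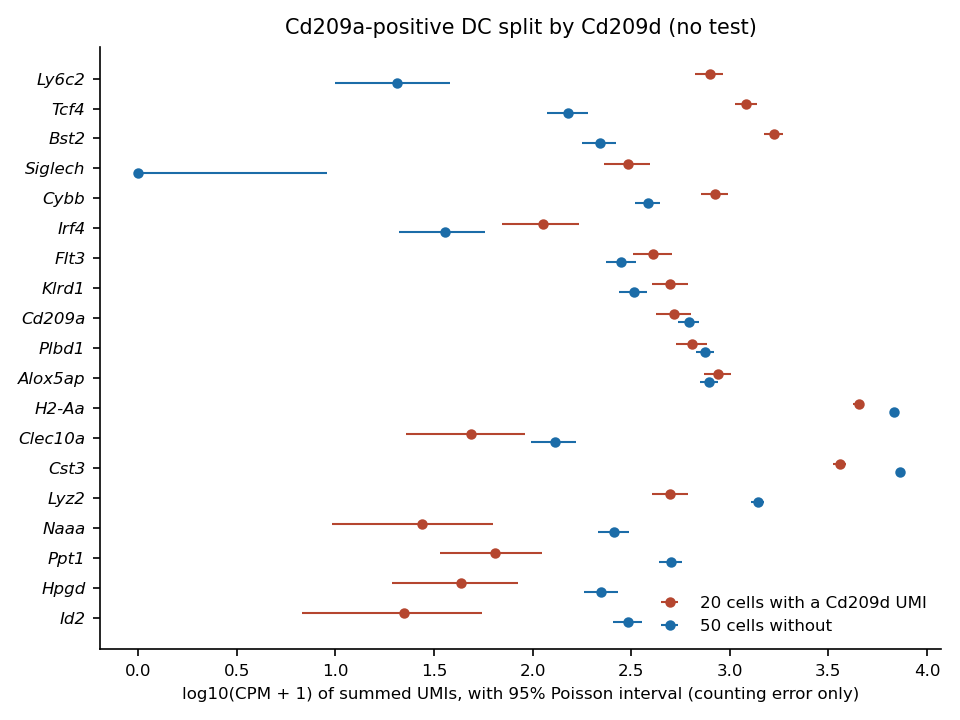
Summed UMIs as log10(CPM + 1) of 19 genes in the 20 Cd209a-positive dendritic cells with a Cd209d UMI (red) and the 50 without (blue), with 95% Poisson intervals, which cover counting error only. Ly6c2, Tcf4, Bst2 and Siglech lie to the right in the Cd209d cells and Id2, Hpgd, Ppt1 and Naaa in the others. Most cells with an Xcr1 UMI are among the 50 without.

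A second set of cells carried cDC1 genes. Xcr1, the cDC1 chemokine receptor, had a UMI in 8 of 70 cells (3, 2 and 3 by tag), of which 5 held 1 Cd209a UMI. These 8 cells had a median of 16712.5 UMIs, against 7869 in the other 62, so depth moves with this split; whether some of them are 2 cells under 1 barcode was not tested. Cadm1, an adhesion molecule of cDC1, stood at 649 CPM with and 13.3 CPM without Xcr1, Irf8 at 929 CPM with and 271 CPM without, Wdfy4, needed for cross-presentation, at 1249.5 CPM with and 246 CPM without, and Id2 at 871 CPM with and 72.1 CPM without. Ppt1, a lysosomal enzyme typical of cDC1, stood at 1661 CPM with and 75.8 CPM without. Cst3 stood at 17822 CPM with and 3569 CPM without, and Apol7c, one of the 6 maturation genes, at 871 CPM with and 1.90 CPM without. The reverse held for some cDC2 and monocyte-type genes but not for all. Lyz2, Ccr2, Itgam, Tmem176b, Irf4 and Klf4 each had UMIs in 1 or more of the 8 cells. Clec10a, Csf1r, Cx3cr1, Ccl9, Clec4a1 and Tmem176a had no UMI in the 8 cells, while they stood at 129, 77.7, 197, 129, 70.2 and 307 CPM in the others. A count of 0 in the 8 cells allows up to 24.7 CPM. Cd209a stood at 263 CPM with and 664 CPM without Xcr1. No cell held both an Xcr1 and a Siglech UMI.

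Clec9a, a cDC1 receptor for dead cells, was less restricted, with a UMI in 34 cells, 26 of them without Xcr1. At least 3 of Xcr1, Clec9a, Cadm1 and Tlr3 were seen together in 7 Cd209a-positive cells and in 61 of the 107 Flt3-positive Cd209a-negative cells described below. Irf8 was uneven as well, with at least 10 UMIs in 12 cells and none in 43. Of these 12 cells, 6 held no Xcr1 UMI, and 3 held neither an Xcr1 nor a Siglech UMI.

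Genes of cDC2 were detected in mixed combinations. Clec10a was detected in 23 cells (6, 6 and 11 by tag), Ccr2, the receptor that draws monocytes and some dendritic cells into tissue, in 44, and Clec12a, an inhibitory lectin, in 40. Cd209a stood at 997 CPM with and 420.1 CPM without Clec10a, Itgam (CD11b) at 169 CPM with and 63.1 CPM without, and the chemokines Ccl6 and Ccl9 at 575 CPM with and 139 CPM without and at 211 CPM with and 60.9 CPM without. Ifitm3 stood at 3423 CPM with and 1484 CPM without and Cadm1 at 5.27 CPM with and 185 CPM without Clec10a. The 8 cells with an Xcr1 UMI all lay on the side without Clec10a. Cadm1 was far more abundant in those cells, and their part in these pairs was not tested. Of the other main cDC2 branch of the spleen, Esam had a UMI in 4 cells and Cd4 in 5. The 8 listed genes of that branch summed to 133 to 285 CPM by tag, and 7 of them had more than 3 UMIs. Mgl2, a lectin of tissue cDC2 that is listed with Clec10a and Ccr2, had a UMI in 3 cells. Mki67 or Top2a, genes of dividing cells, had a UMI in 7 cells. Between the 39 cells with 4 or more Cd209a UMIs and the other 31, at medians of 8030 and 7812 UMIs per cell, Ccr2 stood at 415 CPM with and 156 CPM without and Itgam at 141 CPM with and 39.7 CPM without that many.

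Transcripts of other cell types were present, at levels that differed between types and tags. Summed over 9 NK genes other than Klre1, the class held 922 to 1221 CPM by tag. Klrd1, which encodes the NK receptor subunit CD94, was detected in 58 of 70 cells at 331, 322 and 424 CPM, against 1030.4 CPM in the NK gate. Gzma, granzyme A, stood at 122, 88.4 and 173 CPM against 8271 CPM, and Ncr1 at 64.0, 25.2 and 22.0 CPM against 841 CPM. In the B cell gate, at a median of 3735 UMIs per cell, Klrd1 stood at 32.3 CPM and Gzma at 180.1 CPM. The Cd209a-positive cells thus had a mean Klrd1 level above that of the B cell gate and a mean Gzma level below it. Hbb-bs, a beta-globin gene, stood at 58.1, 75.7 and 50.2 CPM in 15 cells, against 14.4 ± 5.20 CPM in the NK gate. Erythroid genes summed to 120 to 273 CPM (Klf1 at 0), platelet genes to 151 to 360 CPM and T cell genes to 6.28 to 75.6 CPM. Stromal genes summed to 0 to 1553 CPM (Pdgfrb at 0): 3 cells with a Col3a1 UMI, 2 of tag 1 and 1 of tag 3, held 326 of the 327 UMIs of Dcn.

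The Cd209a-positive cells were then compared with 3 other myeloid classes of the library. UMIs were summed per class and tag, and edgeR's quasi-likelihood test with Benjamini-Hochberg adjustment was run over all genes that passed the expression filter, with the tag as a block. A gene is called higher or lower where its adjusted p was under 0.05. Log2 differences are positive where the gene was higher in the Cd209a-positive cells. The SE given with them is the absolute difference divided by the square root of the edgeR F statistic. The 3 comparisons share the Cd209a-positive cells and are not independent of each other. The classes were separated by genes of the rules in the same cells, and no label links a tag to a mouse. A p-value here sets a difference only against its spread between tags, which may be technical.

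The first comparison was with the nearest class, the 107 cells (31, 33 and 43 by tag) of the same class II gate that held a Flt3 UMI and no Cd209a UMI. They were deeper, with a median of 11320 UMIs. The Cd209a-positive cells had higher levels of cDC2, monocyte-type and pDC genes and of several C-type lectins, and lower levels of cDC1 genes. Of these, the pDC genes Tcf4 and Bst2 and the monocyte-type gene Ly6c2 were more abundant in the cells with Cd209d than in the others. Of 5590 genes tested, 151 were higher (2.7%) and 165 lower (2.95%), which is 5.65% in either direction, and the median log2 difference over all genes was -0.05. Without tag 2 there were 51 higher and 50 lower genes and without tag 3 there were 42 and 27, whereas without tag 1 there were 158 and 201. Of 75 called genes followed by name, 28 stayed called without each tag in turn, and the genes described with values below are among these 28 unless a value without a tag is given.

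**Figure D3:**
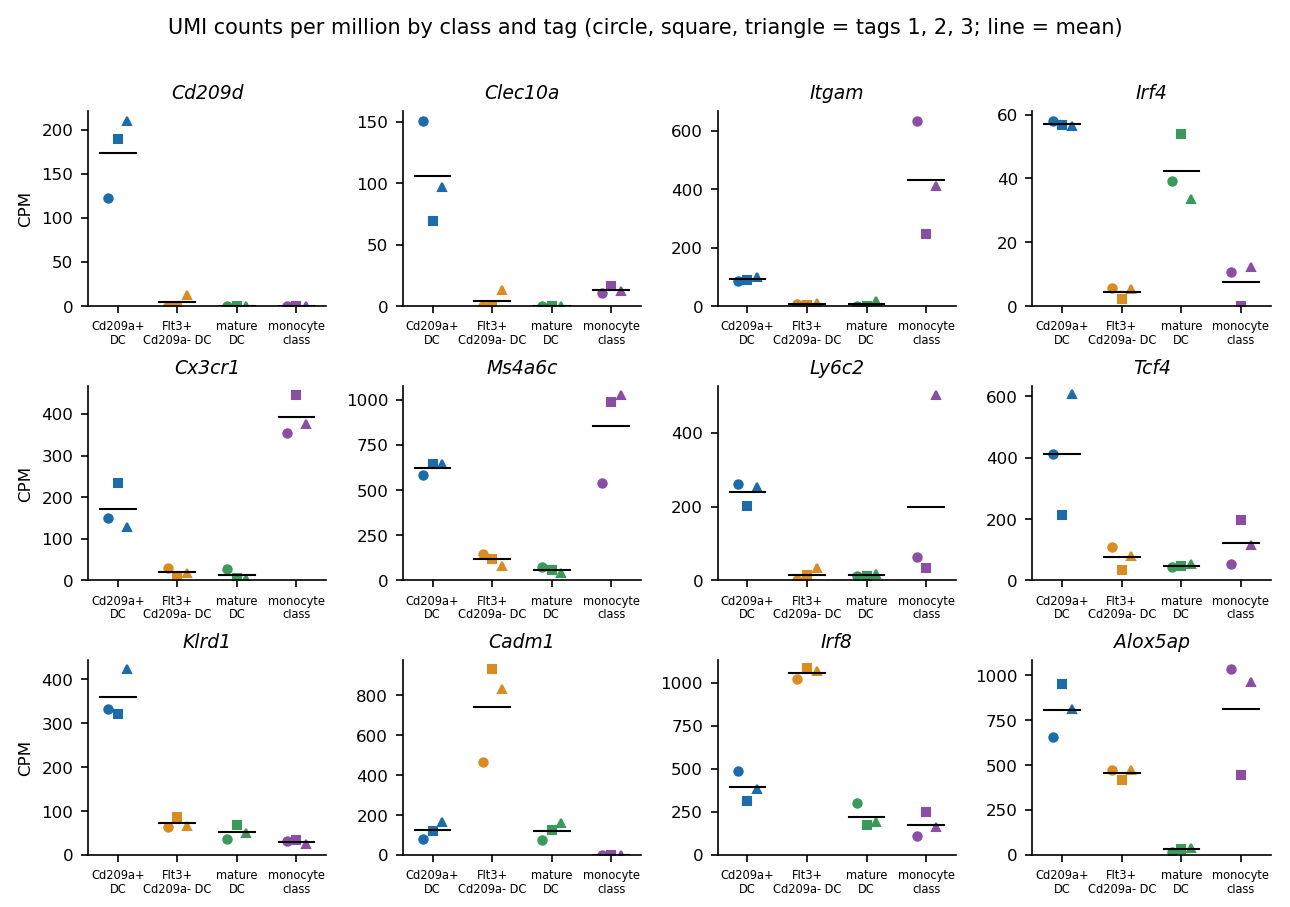
CPM of 12 genes in the Cd209a-positive dendritic cells and the 3 comparison classes, 1 point per tag (circle, square and triangle for tags 1, 2 and 3) with the mean as a line. Cd209d, Irf4, Klrd1 and Tcf4 lie above the Flt3-positive Cd209a-negative class in all 3 tags, and Cadm1 and Irf8 lie below it.

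Of 12 cDC2 genes tested, 7 were higher and 0 lower, with a median log2 difference of 1.57. The classes were separated by Cd209a, itself a gene of the cDC2 list. The rule thus favoured higher cDC2 and lower cDC1 genes in the Cd209a-positive cells, and these differences describe the classes. Itgam, which encodes the integrin chain CD11b, stood at 87.2, 88.4 and 100.4 CPM in the Cd209a-positive cells and at 8.44, 4.58 and 9.15 CPM in the other class, a log2 difference of 3.49 ± 0.52 (SE, edgeR adjusted p = 0.00059). Irf4 stood at 58.1, 56.8 and 56.5 CPM against 5.62, 2.29 and 5.49 CPM (log2 difference 3.49 ± 0.53, edgeR adjusted p = 0.00066). Both genes were higher in 3 of 3 tags, without overlap. Clec10a stood at 151, 69.4 and 97.3 CPM against 0, 0 and 12.8 CPM (log2 difference 4.23 ± 0.68, edgeR adjusted p = 0.0015), so 2 tags of the other class held none. Klf4, Clec4a2, Cd300a and Tmem176b were also higher with all tags. Klf4, the other cDC2 factor, stood at 331, 215 and 213 CPM against 166, 48.1 and 27.5 CPM, and its adjusted p of 0.0042 became 0.056 without tag 2 and 0.092 without tag 3. Without tag 2 the adjusted p was 0.066 for Cd300a and 0.35 for Clec4a2. Without tag 3 it was 0.13 for Cd300a and 0.095 for Tmem176b, and Clec4a2 did not pass the expression filter. Sirpa, the surface marker most often used for cDC2, did not pass (69.8, 82.1 and 78.5 CPM against 59.1, 34.4 and 31.1 CPM, edgeR adjusted p = 0.13).

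Of 12 cDC1 genes tested, 10 were lower and 0 higher, with a median of -1.75. Cadm1 stood at 81.4, 119.9 and 166 CPM against 467, 930.1 and 829 CPM (log2 difference -2.64 ± 0.23, edgeR adjusted p = 1.3e-05). Irf8 stood at 488, 316 and 383 CPM against 1024, 1084 and 1069 CPM (log2 difference -1.50 ± 0.23, edgeR adjusted p = 0.00073). In both genes every tag of the Cd209a-positive cells lay below every tag of the other class. Wdfy4 (-1.81) and Ppt1 (-1.77) were lower as well. Xcr1, Clec9a, Tlr3, Batf3, Naaa and the scavenger receptor gene Cd36 were lower with all tags, but without tag 2 the adjusted p of these 6 genes ranged from 0.055 (Tlr3) to 0.22 (Batf3), and without tag 3 the first 5 ranged from 0.073 (Xcr1) to 0.39 (Clec9a). Without tag 1 that of Batf3 was 0.051. In the other class 61 of 107 cells held at least 3 of Xcr1, Clec9a, Cadm1 and Tlr3, against 7 of the 70 Cd209a-positive cells, and the part of this makeup in the difference was not tested.

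Monocyte-type genes gave 6 higher and 0 lower of 12 tested, with a median of 2.30. Ms4a6c, a membrane protein of the monocyte line, stood at 581, 644 and 643 CPM against 146, 121 and 82.4 CPM (log2 difference 2.38 ± 0.28, edgeR adjusted p = 5.6e-05). Cx3cr1, the fractalkine receptor, stood at 151, 234 and 129 CPM against 30.9, 9.16 and 18.3 CPM (log2 difference 3.05 ± 0.42, edgeR adjusted p = 0.00027). Ly6c2 stood at 262, 202 and 254 CPM against 0, 13.7 and 33.0 CPM (3.89), and as given above most of its UMIs lay in the cells with Cd209d. All 3 genes were without overlap between the classes. Ccr2 stood at 319.8, 328 and 264 CPM against 121, 73.3 and 78.7 CPM and passed with all tags (edgeR adjusted p = 0.0069), but not without tag 2 (0.16). F13a1 and Fn1 were higher with all tags, with an adjusted p of 0.13 and 0.064 without tag 3, and of 0.067 for Fn1 without tag 1. Lyz2 (1762, 1117 and 788 CPM against 928, 131 and 273 CPM, edgeR adjusted p = 0.13) and Csf1r (adjusted p = 0.052) did not pass.

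Of 5 pDC genes tested, 4 were higher and 0 lower, with a median of 1.88. Tcf4 stood at 413, 215 and 606 CPM against 109.7, 34.4 and 80.5 CPM (log2 difference 2.41 ± 0.34, edgeR adjusted p = 0.00035), higher in 3 of 3 tags. As given above, Tcf4 and Bst2 were more abundant in the cells with Cd209d than in the rest of the class. The part of those cells in these differences was not tested. Bst2, Spib and Runx2 were higher with all tags. Bst2 had an adjusted p of 0.12 without tag 2, and Spib of 0.053, 0.072 and 0.35 without tags 1, 2 and 3. That of Runx2 was 0.11 without tag 3. Siglech and Ly6d did not pass the expression filter, and Siglech stood at 23.3, 6.31 and 163 CPM in the Cd209a-positive cells.

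C-type lectins gave 6 higher and 2 lower of 11 tested, with a median of 2.39. Cd209d stood at 122, 189 and 210.3 CPM against 0, 0 and 12.8 CPM (log2 difference 5.03 ± 0.59, edgeR adjusted p = 0.00022). With DESeq2 the call of Cd209d was lost in each of the 3 comparisons (adjusted p = 0.56 here, 0.1 against the mature and 0.38 against the monocyte class). Clec4a1 and Clec4a3, members of the DCIR family, were higher as well. Clec4a1 had 37 UMIs against 1, a ratio of CPM of 76.3 (95% counting interval 12.9 to 3094), and after thinning to 3500 UMIs its edgeR adjusted p was 0.12. Clec4a3 had a log2 difference of 3.96 ± 0.65. Clec4b1 and Clec4a2 were higher with all tags, but the adjusted p of Clec4b1 was 0.066 without tag 2 and 0.11 without tag 3, and the values of Clec4a2 are given above. Ly75, which encodes the uptake receptor DEC-205, was lower, at 23.3, 12.6 and 6.28 CPM against 90.0, 156 and 75.1 CPM (-3.04), and the second lower lectin was Clec9a.

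Of 33 transcription factors tested, 5 were higher (Cebpb, Irf4, Klf4, Tcf4 and Zeb2) and 5 lower (Ahr, Batf3, Etv6, Id2 and Irf8), with a median of 0.10. Id2 stood at 250, 208 and 213 CPM against 880.2, 708 and 857 CPM (log2 difference -1.94 ± 0.21, edgeR adjusted p = 2.7e-05), with every tag below. Zeb2, a repressor that favours cDC2 and pDC, stood at 547, 196 and 424 CPM against 253, 64.1 and 119 CPM, and its adjusted p was 0.19 without tag 3. Without tag 2 the adjusted p of Cebpb was 0.22, of Ahr 0.066 and of Etv6 0.18. Without tag 3 it was 0.073 for Ahr and 0.25 for Etv6, and without tag 1 it was 0.062 for Cebpb. Those of Klf4 and Batf3 are given above. Of 8 genes of the conventional dendritic lineage tested, 0 were higher and 3 lower (Cst3, Id2 and Kit), with a median of -0.54. As given above, Cst3 and Id2 were more abundant in the Cd209a-positive cells with Xcr1 than in the others. The part of cells with cDC1 genes, in either class, in these differences was not tested. Cst3 stayed lower without tags 1, 2 and 3 in turn (edgeR adjusted p = 0.00066, 0.016 and 0.022). The adjusted p of Kit was 0.13 without tag 2 and 0.37 without tag 3.

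Class II and its loading gave 3 higher and 0 lower of 15 tested, with a median of -0.13. H2-Ab1 stood at 5268, 5365 and 5232 CPM against 6502, 7548 and 6977 CPM (log2 difference -0.47 ± 0.36, edgeR adjusted p = 0.54), H2-Eb1 had an adjusted p of 0.31 and Cd74 of 0.82. Both classes were gated on H2-Aa, which is expressed together with these genes. The 3 higher genes were enzymes of antigen breakdown. Ifi30, a lysosomal thiol reductase, stood at 959, 1382 and 1146 CPM against 559.6, 635 and 454 CPM, without overlap (adjusted p = 0.0025, and 0.055 without tag 2 and 0.068 without tag 3). Cathepsins H and S, encoded by Ctsh and Ctss, had adjusted p-values of 0.0083 and 0.032 with all tags, of 0.11 and 0.25 without tag 2, and of 0.12 and 0.37 without tag 3.

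Other higher genes included chemokines and interferon-induced membrane proteins. Ccl9 had 68 UMIs against 1, a ratio of CPM of 140.2 (95% counting interval 24.3 to 5619). Ccl6 stood at 250, 303 and 257 CPM against 42.2, 36.7 and 29.3 CPM (log2 difference 2.85 ± 0.33, edgeR adjusted p = 5.6e-05). Cxcl9, a chemokine that draws T cells, was lower at 64.0, 63.1 and 22.0 CPM against 329, 1285 and 284 CPM (-3.58), and in these 3 genes the classes did not overlap. Cytokines and chemokines as a list gave 2 higher and 2 lower of 16 tested, with a median of 0.40. Interferon-stimulated genes gave 4 higher and 1 lower of 11, with a median of 0.57. Ifitm3 stood at 1919, 2714 and 1792 CPM against 557, 325 and 293 CPM (log2 difference 2.36 ± 0.36, edgeR adjusted p = 0.00063), and Ifitm2 had a log2 difference of 2.00 ± 0.29. Hpgd stood at 52.3, 246 and 195 CPM against 14.1, 4.58 and 16.5 CPM (3.67), so its lowest tag was still above the other class. Costimulation genes gave 1 higher (Cd48) and 2 lower (Cd83 and Havcr2) of 9 (median -0.53). Without tag 3 none of the 3 passed (adjusted p = 0.13, 0.39 and 0.056), and without tag 2 those of Cd48 and Cd83 were 0.42 and 0.057. Genes of the immediate early response gave 5 higher and 0 lower of 14 (median 0.54).

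Klrd1, the NK receptor gene, was higher in the Cd209a-positive cells, at 331, 322 and 424 CPM against 64.7, 87.1 and 65.9 CPM (log2 difference 2.26 ± 0.24, edgeR adjusted p = 2.7e-05), higher in 3 of 3 tags. Of 5 NK genes tested it was the 1 that was higher, with a median of 0.43. Summed NK genes stood at 922 to 1221 CPM in the Cd209a-positive cells and at 568 to 701 CPM in the other class, and their part in the Klrd1 difference was not tested. After thinning to 3500 UMIs, Klrd1 was seen in 64.3% of the Cd209a-positive cells, 16.7% of the other class and 10.4% of the B cell gate, while Gzma was seen in 41.4, 37.3 and 44.5%. Of other cell types, Hbb-bs was higher (58.1, 75.7 and 50.2 CPM against 2.81, 9.16 and 14.6 CPM), with an adjusted p of 0.055, 0.11 and 0.06 without tags 1, 2 and 3. The stromal genes Dcn and Col3a1 were called higher from the 3 cells named above, with Dcn at 1116, 0 and 424 CPM against 267, 2.29 and 3.66 CPM, and neither passed the expression filter without tag 1. The adjusted p of Col3a1 was 0.054 without tag 2 and 0.091 without tag 3. Summed erythroid genes stood at 120 to 273 CPM against 50.4 to 78.7 CPM in the other class and summed stromal genes at 0 to 1553 against 2.29 to 385 CPM. With cells that held T cell, platelet or erythroid UMIs left out of both classes, and so fewer cells, 65 genes were higher and 57 lower, and the log2 difference of Klrd1 was 1.87 (edgeR adjusted p = 0.0078). The part of stromal transcripts in the other differences was not tested. Of the same 5 NK genes, Klrd1 and Klrk1 were called higher with all tags against both the mature and the monocyte class described below. Ccl5 and Gzma were called lower against the mature class.

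**Figure D4:**
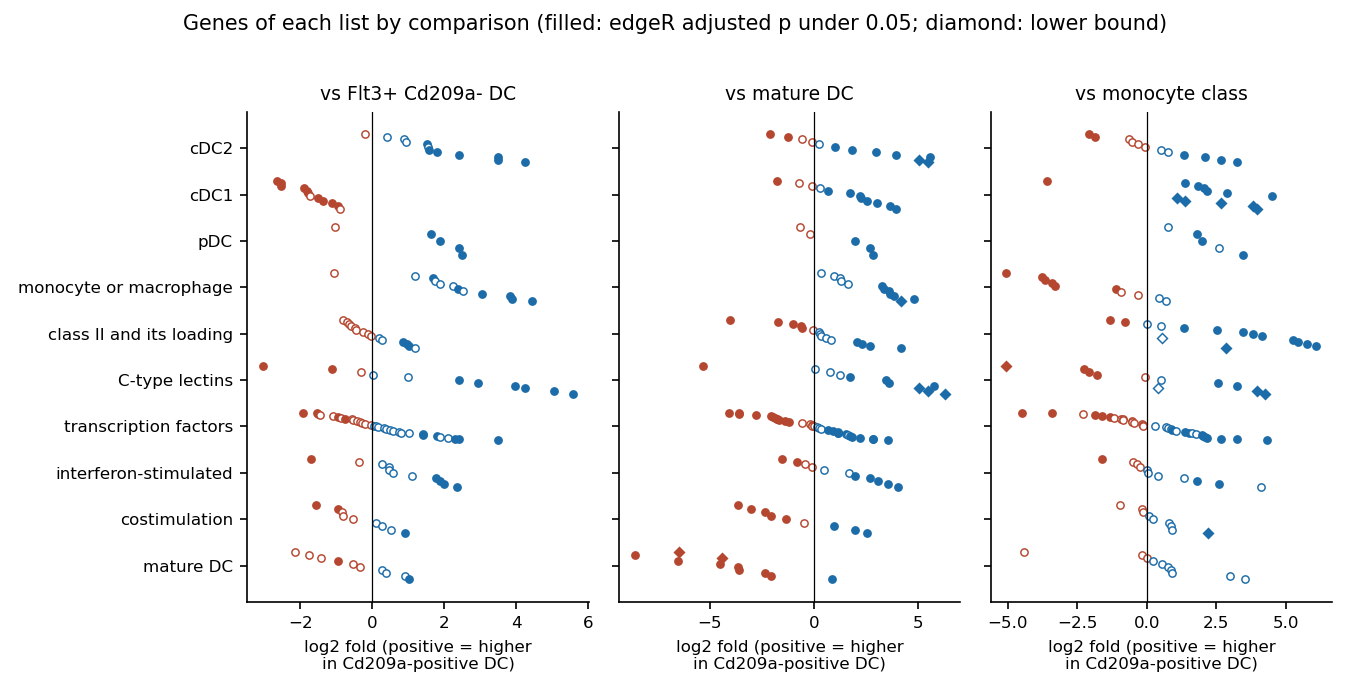
Log2 difference of each tested gene of 10 lists (rows) in the 3 comparisons (panels, each with its own axis), positive where the gene was higher in Cd209a-positive dendritic cells. Filled points have an edgeR adjusted p under 0.05 and diamonds are lower bounds; cDC1 genes lie mostly left of 0 in the first panel and mostly right of it in the others.

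The second comparison was with the mature dendritic cells, 165 cells (53, 74 and 38 by tag, median 7084 UMIs) of the class II gate with at least 3 of the 6 maturation genes. Maturation in dendritic cells swaps antigen uptake for migration to T cells. The difference was wide: the Cd209a-positive cells had higher levels of H2-DMa, H2-DMb1, H2-Ob, Alox5ap, Plbd1, Ccr2 and Cx3cr1, and lower levels of Ccr7, Cd274, Cd40 and Il12b. Of 5591 genes tested, 1163 were higher (20.8%) and 1263 lower (22.6%), or 43.4% in either direction, with a median log2 difference of 0.04 over all genes. Without tag 3 there were 710 higher genes. Ribosomal protein transcripts were a median of 28.8% of UMIs in the Cd209a-positive cells and 14.7% in the mature cells. The part of this gap in the counts of called genes was not tested. Of 61 called genes followed by name, 52 stayed called without each tag in turn, and each one named below that did not is given with its value or its loss at the expression filter.

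The maturation list, without the 6 genes of the rule, gave 9 lower and 1 higher of 10 tested, with a median of -4.08 (-4.02 with genes at 0 taken at their bound). These genes move with the genes that separated the classes and are given as a description. Ccr7, the receptor that guides cells to lymphatic tissue, had 2 UMIs against 1711, a ratio of CPM of 428 (95% counting interval 118 to 3535) in favour of the mature cells. Socs2, a brake on cytokine signals, had no UMI against 409, 463 and 350.2 CPM, which makes it at least 90.8-fold lower over the class. Il12b, a subunit of the cytokines IL-12 and IL-23, had none against 1325, 248 and 458 CPM and was at least 137-fold lower. Relb, an NF-kB factor, stood at 98.8, 114 and 119 CPM against 1209, 1286 and 1199 CPM (log2 difference -3.59 ± 0.25, edgeR adjusted p = 1.8e-08). Nfkb1 was the higher gene, at 0.87, with an adjusted p of 0.13 without tag 3.

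Costimulation genes gave 5 lower and 3 higher of 9, with a median of -1.35. Cd274, which encodes PD-L1, stood at 34.9, 56.8 and 37.7 CPM against 553, 457 and 428 CPM (log2 difference -3.63 ± 0.40, edgeR adjusted p = 1.6e-06). Cd40 (-2.34), Cd83 (-2.05) and Icosl (-3.02) were lower as well. Cd80 was lower with all tags (-1.35), with an adjusted p of 0.099 without tag 2 and 0.054 without tag 3. Cd86, the companion of Cd80, did not pass, at 151, 259 and 151 CPM against 431, 209 and 108 CPM (adjusted p = 0.29). Cd48 (2.55) and Havcr2 (1.99), which encodes the inhibitory receptor TIM-3, were higher, though with at least 2 Cd209a UMIs required the adjusted p of Havcr2 was 0.14. Vsir was higher with all tags and had an adjusted p of 0.21 without tag 2 and 0.14 without tag 3.

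Class II and loading genes went both ways, with 4 higher and 5 lower of 15 and a median of 0.28. Of the classical chains, H2-Ab1 and H2-Eb1 did not pass: H2-Ab1 stood at 5268, 5365 and 5232 CPM against 3501, 2451 and 2054 CPM (adjusted p = 0.072) and H2-Eb1 had a log2 difference of -0.03 ± 0.23. H2-DMa, a chain of the molecule that exchanges peptides on class II, stood at 576, 776 and 753 CPM against 144, 143 and 155 CPM (log2 difference 2.09 ± 0.23, edgeR adjusted p = 1.8e-06). H2-DMb1, its partner, had a log2 difference of 2.68 ± 0.23, and H2-Ob, a chain of its inhibitor, of 2.31 ± 0.38. March1, a ubiquitin ligase that removes class II from the surface, stood at 319.8, 271 and 239 CPM against 19.6, 10.1 and 10.1 CPM (log2 difference 4.17 ± 0.35, edgeR adjusted p = 1e-07). In these 4 genes every tag of the Cd209a-positive cells was above every tag of the mature cells. H2-Eb2 (-4.03) and Lgmn, a lysosomal protease (-1.73), were lower. Ctsh, Ifi30 and H2-DMb2 were lower with all tags, but without tag 1 their adjusted p-values were 0.14, 0.28 and 0.14. That of Ctsh was 0.068 without tag 2 and that of H2-DMb2 0.08 without tag 3.

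**Figure D5:**
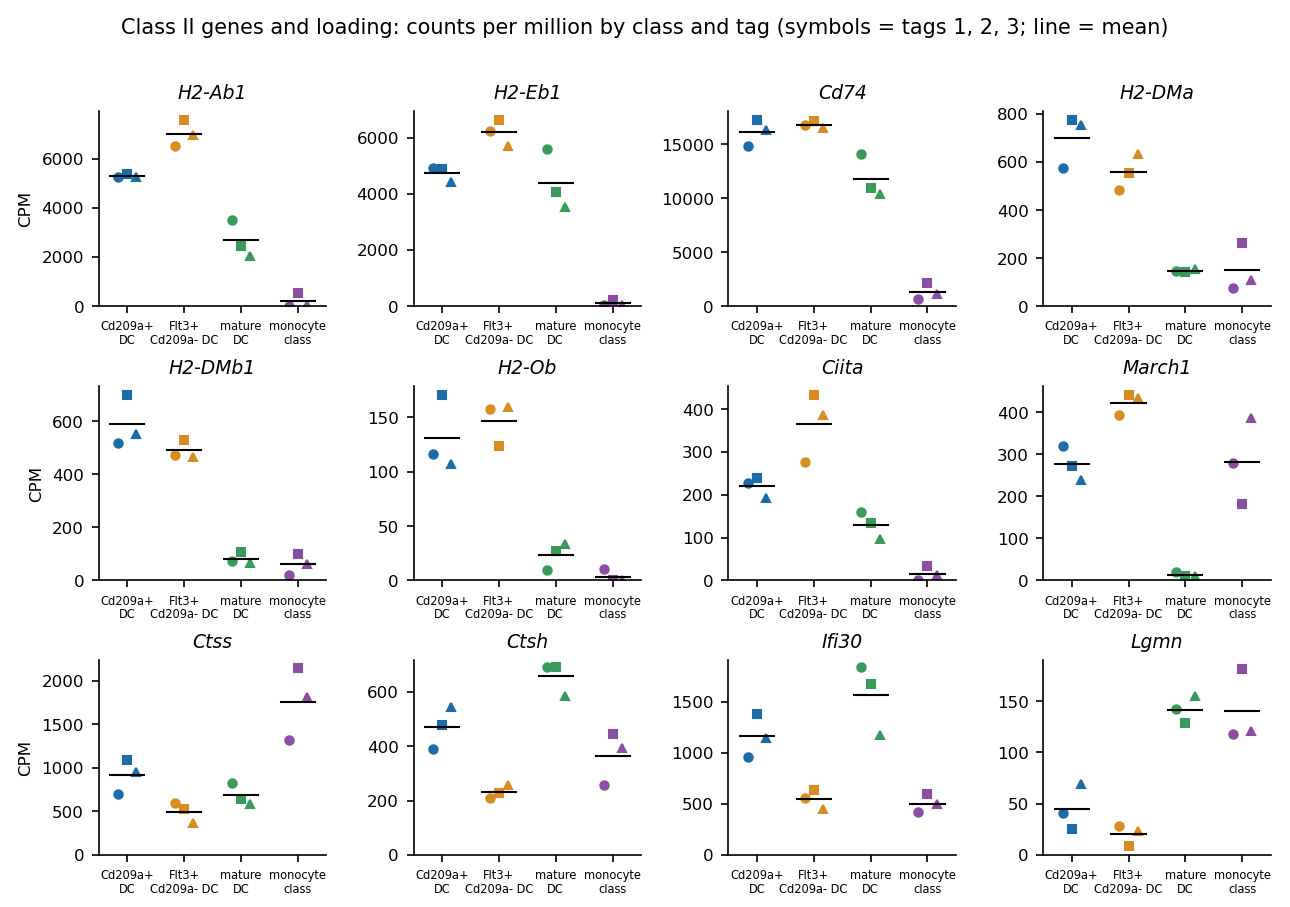
CPM of 12 genes of class II and its loading in the 4 classes, 1 point per tag (symbols) with the mean as a line, each panel from 0. H2-DMa, H2-DMb1, H2-Ob and March1 lie above the mature class in all tags of the Cd209a-positive cells, while H2-Ab1 and H2-Eb1 lie above the monocyte class.

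Alox5ap and Plbd1, which name the class beside Cd209a, were higher than in mature cells. Alox5ap stood at 657, 953 and 813 CPM against 17.1, 33.8 and 40.4 CPM (log2 difference 4.57 ± 0.33, edgeR adjusted p = 2.9e-08). Plbd1 stood at 704, 701 and 734 CPM against 95.5, 101 and 101 CPM (log2 difference 2.68 ± 0.22, edgeR adjusted p = 9.9e-08). Neither gene overlapped between the classes. The leukotriene list gave 2 higher and 1 lower of 4 (median -0.31): Lta4h was higher, with an adjusted p of 0.11 without tag 2 and 0.059 without tag 3, and Ltc4s was lower, with 0 UMIs and an adjusted p of 0.1 without tag 2. Against the Flt3-positive Cd209a-negative cells, Alox5ap and Plbd1 did not pass, at adjusted p-values of 0.087 and 0.095. There Alox5ap lay higher in the Cd209a-positive cells, but Plbd1 lay lower in them. Summed with H2-Ab1, these genes stood at 6629, 7019 and 6779 CPM against 7947, 9026 and 8476 CPM in that class.

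Receptors for migration and uptake were mostly higher. Migration receptors gave 6 higher and 1 lower of 10, with a median of 2.14. Ccr2 stood at 319.8, 328 and 264 CPM against 7.35, 8.44 and 13.5 CPM (log2 difference 4.81 ± 0.48, edgeR adjusted p = 5.2e-07), Cx3cr1 had a log2 difference of 3.60 ± 0.46 and Itgam of 3.96 ± 0.58. C-type lectins gave 7 higher and 1 lower of 11, with a median of 3.46. Cd209d and Clec10a had no UMI in the mature cells and were at least 78.7-fold and 45.3-fold higher over the class. Ly75 was the lower lectin, at 23.3, 12.6 and 6.28 CPM against 666, 527 and 333 CPM (-5.35). cDC2 genes gave 7 higher and 2 lower of 12 (median 1.44), cDC1 genes 8 and 1 of 12 (median 1.98), monocyte-type genes 7 and 0 of 12 (median 3.31) and pDC genes 3 and 0 of 5 (median 1.97). As given above, several cDC1 genes were more abundant in the cells with Xcr1 and several pDC genes in those with Cd209d. The part of these cells here was not tested. Genes of the conventional dendritic lineage gave 2 higher and 3 lower of 9 (median -0.11).

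Cytokines gave 5 higher and 4 lower of 16, with a median of 0.78. Il15, a cytokine that sustains NK cells, stood at 5.81, 0 and 22.0 CPM against 218, 356 and 444 CPM (log2 difference -4.99 ± 0.50, edgeR adjusted p = 5.7e-07). Ccl5 stood at 372, 359.8 and 379.8 CPM against 5031, 6256 and 6865 CPM (-4.17), where the NK gate held 11621 CPM. Both genes were lower in 3 of 3 tags. Transcription factors gave 11 higher and 12 lower of 33 with a median of 0.00, with Tcf4 (2.86) and Klf4 (1.84) among the higher, and interferon-stimulated genes gave 5 and 2 of 11 (median 1.67).

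The third comparison was with 57 cells of a monocyte class (16, 10 and 31 by tag, median 5182 UMIs). That class held Csf1r and at least 3 Lyz2 UMIs but no Flt3 or Cd209a, and the Cd209a-positive cells were gated on H2-Aa. These rules favoured higher class II and dendritic lineage genes and lower monocyte genes in the Cd209a-positive cells, so the differences describe the classes and are no check of the label. The Cd209a-positive cells had higher levels of 10 of 15 class II and loading genes and of 5 of 8 dendritic lineage genes, and lower levels of Ace, Treml4 and complement genes. Of 5588 genes tested, 388 were higher (6.94%) and 407 lower (7.28%), or 14.2% in either direction, and the median over all genes was 0.05. Tag 2 of the monocyte class held only 60583 UMIs. There were 245 higher genes without tag 1, and 187 higher and 192 lower without tag 3. Of 59 called genes followed by name, 41 stayed called without each tag in turn, and each one named below that did not is given with its value or its loss at the expression filter.

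Class II and its loading gave 10 higher and 2 lower of 15, with a median of 3.84 (2.85 with genes at 0 taken at their bound). H2-Ab1 stood at 5268, 5365 and 5232 CPM against 10.8, 512 and 36.3 CPM (log2 difference 5.45 ± 0.52, edgeR adjusted p = 1.7e-06). H2-Eb1, whose promoter is shown above, stood at 4925, 4873 and 4406 CPM against 32.3, 231 and 30.3 CPM (log2 difference 6.11 ± 0.35, edgeR adjusted p = 9.5e-09). Ciita, the coactivator, stood at 227, 239.9 and 191 CPM against 0, 33.0 and 12.1 CPM (log2 difference 4.15 ± 0.54, edgeR adjusted p = 4.6e-05). In these genes every tag of the Cd209a-positive cells was above the monocyte class. Only the Cd209a-positive cells were gated on H2-Aa, so the direction of the class II chains was favoured by the rule. Cd74 (3.84), H2-DMa (2.53), H2-DMb1 (3.46) and Ifi30 (1.34) were higher too. Ctss and Lgmn were lower, with adjusted p-values of 0.15 and 0.055 without tag 3, of 0.093 and 0.17 without tag 2 and, for Lgmn, of 0.11 without tag 1.

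Genes of the conventional dendritic lineage gave 5 higher and 0 lower of 8, with a median of 2.02 (1.78 with bounds). In the earlier comparisons this list had more lower than higher genes. Bcl11a stood at 355, 359.8 and 226 CPM against 0, 16.5 and 24.2 CPM (log2 difference 4.31 ± 0.52, edgeR adjusted p = 2.7e-05). Dpp4 stood at 302, 271 and 235 CPM against 21.5, 49.5 and 6.05 CPM (log2 difference 3.90 ± 0.47, edgeR adjusted p = 2.6e-05). Kit, the stem cell factor receptor, had no UMI in the monocyte class and was at least 6.87-fold higher. Zbtb46 had 39 UMIs against 2, a ratio of CPM of 9.58 (95% counting interval 2.48 to 81.9), with an adjusted p of 0.14 without tag 3. Cst3 (0.69) was called with all tags but not without tag 2 (adjusted p = 0.28) or tag 3 (0.094), and its sign turned in 2 other settings given in the closing part. cDC1 genes gave 11 higher and 1 lower of 12, with a median of 3.70 (2.12 with bounds). Clec9a and Cadm1 had no UMI in the monocyte class, which makes them at least 15.5-fold and 14.1-fold higher. Cadm1 was detected in only 9 of the 70 Cd209a-positive cells and, as given above, lay mostly in those with Xcr1. The part of the Xcr1 cells in the cDC1 differences was not tested. The adjusted p of Cadm1 was 0.25 with at least 2 Cd209a UMIs required. Cd209d was at least 19.3-fold higher.

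Monocyte and macrophage genes other than Csf1r and Lyz2 gave 6 lower and 0 higher of 10, with a median of -2.20. Ace, a marker of patrolling monocytes, stood at 17.4, 18.9 and 6.28 CPM against 474, 495 and 460 CPM (log2 difference -5.06 ± 0.40, edgeR adjusted p = 4.5e-07). Treml4, a marker of the same cells, stood at 17.4, 25.2 and 25.1 CPM against 323, 314 and 315 CPM (log2 difference -3.68 ± 0.39, edgeR adjusted p = 7.4e-06). Neither gene overlapped. Apoe, a lipid carrier of macrophages, stood at 279, 31.6 and 37.7 CPM against 6447, 7246 and 1804 CPM (-5.67), with tag 1 of the Cd209a-positive cells above the others. Adgre1 and Cx3cr1 were lower with all tags, and the adjusted p of Cx3cr1 was 0.051 without tag 2 and 0.33 without tag 3. Adgre1 did not pass the expression filter without tag 3. All 5 red pulp macrophage genes tested were lower, with a median of -9.90 (-6.22 with bounds). C1qa, a complement subunit, had no UMI against 1012, 1618 and 6.05 CPM, so the signal lay in tags 1 and 2 of the monocyte class, and it was at least 131-fold lower. C1qa, C1qb and C1qc did not pass the expression filter without tag 1, and with DESeq2 the adjusted p was 0.23 for C1qb and 0.25 for C1qc. Vcam1 had an adjusted p of 0.073 without tag 1 and 0.37 without tag 2, and Hmox1 of 0.082 without tag 2. Hmox1 did not pass the expression filter without tag 3.

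Several genes did not separate the Cd209a-positive cells from the monocyte class. Ccr2 stood at 319.8, 328 and 264 CPM against 53.8, 248 and 303 CPM (log2 difference 0.68 ± 0.38, edgeR adjusted p = 0.27). Alox5ap stood at 657, 953 and 813 CPM against 1033, 446 and 962 CPM (0.10 ± 0.26, adjusted p = 0.88), and Klf4 had a log2 difference of -0.52 ± 0.34 (adjusted p = 0.36). A p above the threshold does not show that levels were alike, and the spread between tags of the monocyte class was wide. cDC2 genes gave 4 higher and 2 lower of 12, with a median of 0.22. The lower genes were Itgam, at 87.2, 88.4 and 100.4 CPM against 635, 248 and 412 CPM (log2 difference -2.07 ± 0.36, edgeR adjusted p = 0.00059), and Sirpa, at 69.8, 82.1 and 78.5 CPM against 323, 413 and 236 CPM (-1.85). Without cells that held T cell, platelet or erythroid UMIs the adjusted p of Itgam was 0.093. Of the higher, Irf4 had 37 UMIs against 3, a ratio of CPM of 6.06 (95% counting interval 1.92 to 30.7), and its adjusted p was 0.066, 0.067 and 0.099 without tags 1, 2 and 3. Clec10a had an adjusted p of 0.065 without tag 1 and 0.069 without tag 3. C-type lectins gave 4 higher and 4 lower of 11 (median 0.53, 0.39 with bounds), with Clec4a1 (-2.09) and Clec4a3 (-2.25) lower here although both were higher than in the Flt3-positive Cd209a-negative cells. Cebpb, a monocyte factor (-4.49), and Zeb2 (-1.87) were lower.

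Of the 4 genes of the potassium channel the study is about, Kcnj8 had 1 UMI in the 70 cells. Kcnj11, Abcc8 and Abcc9 had 0, which allows up to 4.62 CPM each over the class, so no level of this channel was measurable in the Cd209a-positive cells at this depth.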

How the data were processed

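The study measured polyadenylated RNA of splenic NK-enriched cells with 10x Genomics libraries. The authors deposited a matrix of UMI counts per gene and tag, and per the file headers Cell Ranger 7.0.0 made it. Seurat and the mm10 build are named in the submitters' processing notes. The annotation and the treatment of intronic reads are not given.

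Of 16384 barcodes, 15742 had 500 to 6000 genes and at most 10% mitochondrial UMIs, and the 11692 with exactly 1 of 3 tags were kept (3540 had several, 510 none). No other doublet caller was run, so doublets within a tag remain. Cells were assigned by the UMI rules given in the text, and members and gene lists were chosen with earlier results of these data known. UMIs were summed per class and tag and tested with edgeR 4.0.16 in R 4.3.3 (TMM, expression filter, quasi-likelihood test, tag as block, 1 fit over 4 classes by 3 tags, genes of the rules left out), first tested on simulated data. DESeq2 1.42.0 was an alternative. Named were the 12 genes with the largest fold in each direction that passed, moved alike in 3 of 3 tags and reached 50 CPM in the higher class, the 20 most abundant genes and listed genes, and a selection of these is printed. The divisions of the class by Cd209d, Xcr1 and Cd209a counts, and Cybb, were chosen after their values were seen. A fold against a class without a UMI was computed against 3 counts over the class. Promoters came from RefSeq, and 18 of 23 symbols looked up matched. Summed depth per class and tag was 60583 UMIs or more, and intervals cover counting error only.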

Additional observations from a re-analysis of the deposited data

How the results depend on the processing

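Counts of called genes are given as higher and lower. Against the Flt3-positive Cd209a-negative cells (151 and 165 genes), leaving out 1 tag at a time gave 42 to 158 and 27 to 201. Thinning to 3500 UMIs gave 77 and 103, and leaving out cells with a T cell, platelet or erythroid UMI, which kept 33 Cd209a-positive cells, gave 65 and 57. DESeq2 gave 101 lower genes, at least 2 Cd209a UMIs 297, leaving out the deepest 10% of cells 259, and Cd209a-positive cells without Xcr1 and Siglech UMIs 315. Limiting the comparison class to cells with Xcr1 or Clec9a gave 260 higher genes. Against mature cells (1163 and 1263), the tags gave 710 to 1017 and 865 to 1155, the cells without T cell, platelet or erythroid UMIs 649 and 735, and thinning 574 and 688. Against the monocyte class (388 and 407), they gave 187 to 267 and 192 to 284, 223 and 192, and 234 and 239. Thinning left 2549 to 2552 genes tested and the marker-free cells 3562 to 3565, against 5588 to 5591. The cause of these and the other changes was not tested. The remaining settings kept each count within 1.5 times, among them no tag block (134 and 149, 1182 and 1246, 391 and 410).

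Of 75, 61 and 59 called genes followed by name in the 3 comparisons, 25, 49 and 33 stayed called in the same direction under every setting that could be fitted. Cst3 against the monocyte class turned from 0.69 to -0.14 without the deepest 10% of cells (edgeR adjusted p = 0.69) and to -0.039 in Cd209a-positive cells without Xcr1 and Siglech UMIs (edgeR adjusted p = 0.96). The cause was not tested. The share of Cd209a-positive cells was 0.436 to 0.686% when a tag was left out, 0.409% with at least 2 Cd209a UMIs and 0.465% with all barcodes kept. The settings without Xcr1 and Siglech cells, without Col3a1 cells and without the cell with most Lyz2 UMIs were chosen after seeing the data. Limits are the small number of cells, 1 library, tags that no label links to a mouse, and classes drawn from the measured counts. A gene under 4.62 CPM over the class was below 3 counts.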

Other observations

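Immediate early genes, which are induced within minutes by stimulation and also by tissue dissociation, varied between tags in the Cd209a-positive cells. Fos stood at 2151, 839.5 and 1004 CPM in tags 1, 2 and 3 and Junb at 1768, 909 and 838 CPM, so tag 1 was the highest for both. Tag 1 was also the highest for the summed list in the other 3 myeloid classes and in the NK and B cell gates, at 5359, 2944 and 2899.5 CPM in the NK gate. Against the Flt3-positive Cd209a-negative cells 5 of the 14 listed genes were higher (Atf3, Ier2, Jun, Junb and Zfp36). Without tag 3 their edgeR adjusted p ranged from 0.12 (Zfp36) to 0.41 (Jun). Without tag 2 it ranged from 0.058 (Jun) to 0.22 (Atf3), and without tag 1 it was 0.12 for Jun and 0.051 for Zfp36. The part of sample handling in these values was not tested.

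Among receptors of microbial products, Ly86, which encodes the MD-1 protein that pairs with the Toll-like receptor relative RP105, stood at 285, 423 and 424 CPM in the Cd209a-positive cells and was seen in 66 of 70. The list gave 4 higher (Cd180, Ly86, Nlrp3 and Tlr3) and 1 lower (Ly96) of 10 tested against mature cells, where 43.4% of all tested genes were called. Against the monocyte class it gave 2 higher and 3 lower, with the RNA sensor gene Tlr7 at 29.1, 6.31 and 6.28 CPM against 139.9, 165 and 176 CPM (log2 difference -3.51 ± 0.56, edgeR adjusted p = 0.00032). Il1b, an inflammatory cytokine gene, stood at 319.8, 133 and 91.0 CPM, and its tags spread widely.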
